A study of Mus musculus with 7 samples.

Results

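Kinesins are motor proteins that walk along microtubules, and the mouse genes that encode them were examined here in the prefrontal cortex of wild-type mice and of mice of the genotype labelled hDISC1AA/+. The set holds every protein-coding gene in the deposited table whose symbol begins with Kif and a number or with Kifc, together with Kifap3 and the light chain genes Klc1 to Klc4. These rules select 48 of the 43626 genes in the table, on 16 chromosomes. One of the 48, Kif1bp, encodes a KIF-binding protein and not a motor, and it is described on its own. RNA sequencing covered 3 WT and 4 hDISC1AA/+ libraries, all made from male C57BL/6J animals at 8 weeks of age. The labels give the mutant genotype by that name alone, and the series title concerns phosphorylation of DISC1 at a pair of serines. The labels do not say that the libraries came from separate mice, so p-values measure the spread between these libraries, which may be technical. The name of 1 hDISC1AA/+ column matches no sample title. It was placed in its group by the ending of its name and is called the unnumbered library.

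A kinesin motor domain hydrolyses ATP and steps along a microtubule, in most families towards the plus end that points away from the cell body in axons. Kinesin-1 is a tetramer of 2 heavy chains (KIF5A, KIF5B or KIF5C) and 2 light chains (KLC1 to KLC4), and it carries mitochondria, vesicles and protein complexes along axons. Kinesin-2 pairs KIF3A with KIF3B or KIF3C and binds cargo through KAP3, the product of Kifap3. Kinesin-3 motors such as KIF1A carry synaptic vesicle precursors. Other families shorten microtubules (kinesin-13), run towards minus ends (kinesin-14) or build the mitotic spindle. DISC1 is a scaffold protein known to bind kinesin-1 and its cargo, and GSK3, a kinase that DISC1 inhibits, is known to phosphorylate kinesin light chains.

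Values are normalized counts, which are reads scaled by a factor for each library, and log2 differences are hDISC1AA/+ minus WT on normalized counts plus 1. None of the 44 tested kinesin genes passed the limma test for a difference between genotypes after Benjamini-Hochberg adjustment over 17670 genes. In the whole table the share of genes called was likewise 0%. The adjusted p of the 44 genes ran from 0.974 to 0.998 in limma. At an unadjusted limma p under 0.05 there was 1 kinesin gene, Kif5c, against 431 of all tested genes (2.44%). The count tests edgeR and DESeq2, run on whole reads recovered from the table, also called 0 kinesin genes and 0 of all genes. At an unadjusted p under 0.05, edgeR gave 1 of 43 kinesin genes, against 452 of all 17540 tested genes. DESeq2 gave 1 of 46, against 604 of 28381. The 4 genes not tested fell short of the filter, which asked for 3 or more libraries with normalized counts of 10 or higher.

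The values of the 3 WT and the 4 hDISC1AA/+ libraries did not overlap for 4 of the 44 tested genes, against 5.04% of all tested genes. Kif5c, Kifap3 and Kif13a lay lower in every hDISC1AA/+ library than in any WT library, a pattern that 2.84% of all tested genes showed. Kif27 lay higher in every hDISC1AA/+ library, as 2.2% of all tested genes did. The promoter sequences of these 4 genes, from RefSeq on build GRCm38.p6, are shown because these are the genes whose groups did not overlap. Each is read 5′ to 3′ on the strand of its gene and runs from before to just after the annotated start. Capitals mark matches to 4 motifs, each searched on both strands. The GC box was searched as GGGCGG and the CCAAT box by the letters of its name. The TATA box was searched as TATAAA. The cyclic AMP response element, which CREB binds, was searched as TGACGTCA. Neighbouring matches did not overlap in these 4 sequences.
Kif5c: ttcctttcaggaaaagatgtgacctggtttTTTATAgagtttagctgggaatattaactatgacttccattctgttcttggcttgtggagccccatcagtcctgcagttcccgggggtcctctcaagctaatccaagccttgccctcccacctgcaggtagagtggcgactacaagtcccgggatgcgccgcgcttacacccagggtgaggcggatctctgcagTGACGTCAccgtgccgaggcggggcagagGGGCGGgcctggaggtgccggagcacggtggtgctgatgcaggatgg
Kifap3: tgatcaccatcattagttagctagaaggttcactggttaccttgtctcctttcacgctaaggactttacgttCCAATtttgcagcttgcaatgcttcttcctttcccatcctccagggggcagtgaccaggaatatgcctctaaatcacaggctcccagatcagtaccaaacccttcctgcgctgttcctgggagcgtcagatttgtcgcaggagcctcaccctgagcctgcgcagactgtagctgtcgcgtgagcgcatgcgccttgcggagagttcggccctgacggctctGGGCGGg
Kif13a: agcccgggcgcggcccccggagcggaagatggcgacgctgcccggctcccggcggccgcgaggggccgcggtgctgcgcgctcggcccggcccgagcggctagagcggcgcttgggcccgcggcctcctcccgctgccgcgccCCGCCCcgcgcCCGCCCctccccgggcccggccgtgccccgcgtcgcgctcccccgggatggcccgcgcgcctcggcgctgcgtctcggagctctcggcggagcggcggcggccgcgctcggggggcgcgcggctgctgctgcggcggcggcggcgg
Kif27: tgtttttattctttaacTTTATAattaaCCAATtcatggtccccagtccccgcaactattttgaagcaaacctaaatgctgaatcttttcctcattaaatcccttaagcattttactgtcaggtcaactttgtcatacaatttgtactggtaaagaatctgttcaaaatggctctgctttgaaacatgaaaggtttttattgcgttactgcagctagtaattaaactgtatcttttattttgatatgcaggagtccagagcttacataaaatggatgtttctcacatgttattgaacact
The Kif5c promoter (chr2:49619036-49619335, plus strand) held 1 match each to the GC box, the TATA box and the cyclic AMP response element. The Kifap3 promoter (chr1:163779333-163779632, plus strand) held 1 GC box and 1 CCAAT box. The Kif13a promoter (chr13:46929669-46929968, minus strand) held 2 GC boxes and 62 CpG pairs, with a GC content of 86.7%. The Kif27 promoter (chr13:58354898-58355197, minus strand) held 1 CCAAT box, 1 TATA box and 2 CpG pairs, and its RefSeq start lies inside the longer Kif27 gene of the GENCODE annotation.

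Promoter sequences were found for 38 of the 48 genes, with 42 promoters in all. A GC box was present in 27 of the 42 (64.3%), against 35.7% of the 32851 promoters of that length in the table. A CCAAT box was present in 21 (50%, against 37.4%) and a TATA box in 6 (14.3%, against 13.6%). The cyclic AMP response element was present in 4 (9.52%, against 1.79%). The kinesin promoters had a median of 26 CpG pairs and a GC content of 63.3%, against 7 pairs and 52.7% over all promoters. The motif shares were not matched for this difference, and its part in them was not tested. A match describes the letters of these windows and is not a measured binding site.

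Levels of different genes are compared here as normalized counts per kilobase of exon, averaged over the 7 libraries. Exon length covers the exons of all annotated transcripts of a gene, and the order depends on that choice. Kif1b, with 17608 exon bases, ranks below Kif5c per kilobase though its mean normalized count was higher (35989 against 32616). Kif5a, the neuronal kinesin-1 heavy chain, had the highest level at 12013 per kilobase, or 23.1% of the sum over all 48 genes. Klc1 followed at 6642, then Kif1a at 5700, Kifc2 at 4758 and Kif5c at 4567. Those 5 genes made up 64.9% of the sum. Klc1 and Kif1a were close neighbours in this order, and so were Kifc2 and Kif5c, whose values per kilobase overlapped between libraries. The next were Kifap3 at 3110, Klc2 at 2513, Kif1b at 2044 and Kif3a at 1658 per kilobase. Transport motors and their subunits held the abundant end of the list, and the motors of mitosis lay at the low end. Kif11, the kinesin-5 that slides spindle microtubules apart, had 10.03 per kilobase, and Kif23, a kinesin-6 of the central spindle, had 10.1.

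**Figure D1:**
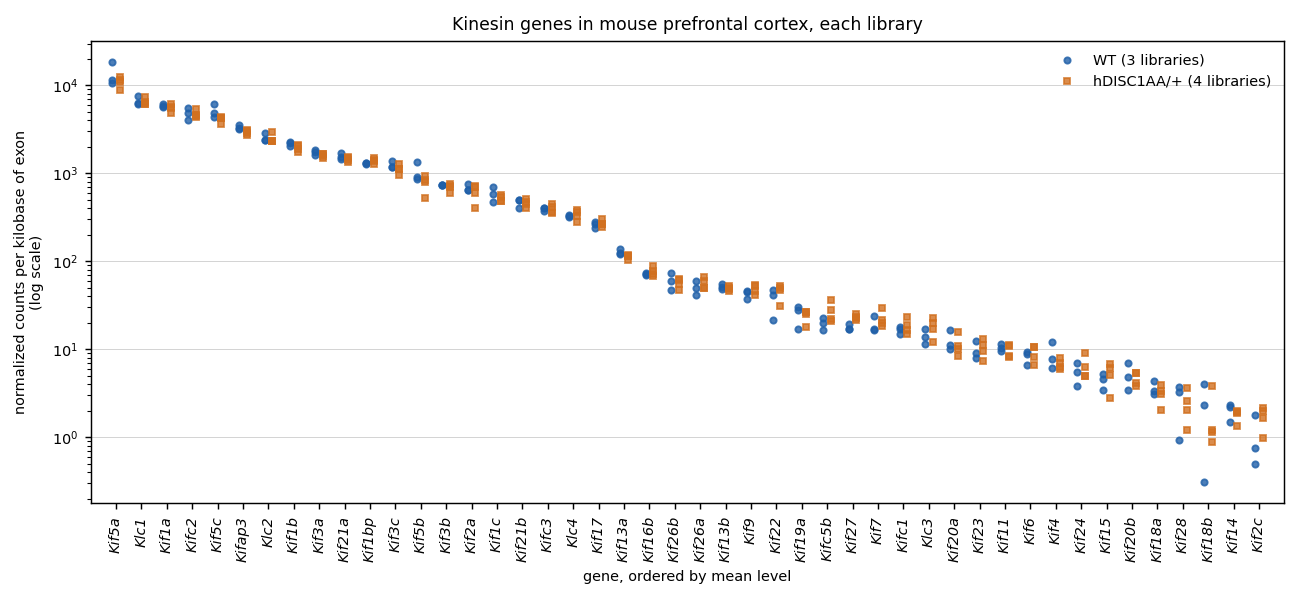
Level of each kinesin gene with any reads (46 genes, ordered by mean) in each library, as normalized counts per kilobase of exon on a log axis. Blue circles are the 3 WT and orange squares the 4 hDISC1AA/+ libraries, and Kif5a leads at a mean of 12013 while the mitotic motors lie near the bottom.

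Kif12 and Kif2b had 0 reads in all 7 libraries, and a count of 0 allows up to 3 reads, which is 1.93 to 3.27 normalized counts depending on the library. Kif2c, a mitotic microtubule depolymerase, had 2.18 to 9.26 normalized counts. Kif18b, another mitotic kinesin, had 1.09 to 14.2. Such limits cover counting error only.

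The library totals were 33512557 to 36005116 recovered reads in 6 libraries and 63845254 in WT replicate 1. Disc1 itself had 46.9 to 109 normalized counts in WT and 60.3 to 85.4 in hDISC1AA/+ libraries (log2 difference 0.08, limma adjusted p = 0.998), a level that does not check the genotype labels. Neuron markers were present throughout, with a summed normalized count of 514993 to 565932 in WT and 468613 to 529578 in hDISC1AA/+. A pair of libraries stood apart. In WT replicate 1 the 10 oligodendrocyte markers summed to 141186, against 42784 and 52553 in the other WT libraries and 40571 to 47388 in hDISC1AA/+. The 10 endothelial and mural markers summed to 4853 there, against 11262 to 15171 in the other 6 libraries. In hDISC1AA/+ replicate 1 the deviation of a gene from its mean over the libraries followed the GC content of its exons, with Pearson's r = 0.53 across 17543 genes. Astrocyte markers summed to 185053 to 269500 in WT and 161967 to 198750 in hDISC1AA/+, and microglia markers to 12045 to 17703 and 11706 to 13775. Of 10 markers each, 10 of oligodendrocytes, 10 of astrocytes, 8 of neurons, 8 of microglia and 0 of endothelial and mural cells lay lower in hDISC1AA/+. The part of these in the kinesin differences was not tested. None of the 7 marker lists held a gene listed at 0 in all libraries, and 0 markers passed the limma test.

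Kinesin-1 gave the lowest log2 difference of any kinesin gene, in the heavy chain Kif5b, and the single unadjusted p under 0.05, in Kif5c. Of its 7 tested genes, 5 lay lower in hDISC1AA/+ and 0 passed the test, with a median log2 difference of -0.04. Beside this and each family count below, 52.2% of all tested genes lay lower. Among those with a mean of at least 1000 normalized counts the share was 66.7%. The 3 heavy chains had differences of -0.28 to -0.43, while the 2 abundant light chains were within 0.04 of 0. With both libraries that stood apart left out, Kif5a was at -0.09, Kif5b at -0.06 and Kif5c at -0.18. Klc1 was then at 0.0040 and Klc2 at -0.03.

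Kif5c, a heavy chain enriched in neurons, is annotated at chr2:49619298-49774778 on the plus strand (GRCm38). Its normalized counts were 44418, 31326 and 34566 in WT replicates 1 to 3. The hDISC1AA/+ group had 30514, 30491 and 31121 in replicates 1, 3 and 4, with 25876 in the unnumbered library. All 4 hDISC1AA/+ values lay below the lowest WT value, though replicate 4 came within a narrow margin of WT replicate 2. The means were 36770 ± 6818 (SD, n = 3) and 29501 ± 2434 (SD, n = 4). Its log2 difference in limma was -0.31 (95% confidence interval -0.60 to -0.01), with a limma unadjusted p of 0.044 and an adjusted p of 0.974 (Benjamini-Hochberg). Without WT replicate 1, the library high in oligodendrocyte markers, the log2 difference was -0.16, and without the unnumbered library it was -0.24. In tissue of mixed cells, fewer cells that express a gene and less of its RNA per cell cannot be told apart.

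Kif5a, mutated in hereditary spastic paraplegia in humans, had normalized counts of 129980, 73691 and 79764 in WT replicates 1 to 3. The hDISC1AA/+ libraries had 87179, 75811 and 80019 in replicates 1, 3 and 4, with 61373 in the unnumbered library. WT replicate 1 was far above all others, and the remaining values of the groups overlapped. Between genotypes the log2 difference was -0.28 (interval -0.73 to 0.18, limma adjusted p = 0.974), and it was -0.02 without WT replicate 1 and -0.09 with hDISC1AA/+ replicate 1 left out as well. The part of the oligodendrocyte-rich composition of WT replicate 1 in these values was not tested.

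Kif5b, the heavy chain present in most tissues, had normalized counts of 10858, 7199 and 6971 in WT replicates 1 to 3. Counts in hDISC1AA/+ were 4238, 6696 and 7425 in replicates 1, 3 and 4, with 6343 in the unnumbered library. The highest value came from WT replicate 1 and the lowest from hDISC1AA/+ replicate 1, and the rest overlapped. Its log2 difference was -0.43 (interval -0.93 to 0.06, limma adjusted p = 0.974). With both of those libraries left out it was -0.06. The exons of Kif5b have a GC content of 42.1%, and with a correction for GC content and length the log2 difference was -0.30. The part of GC content in the low value of hDISC1AA/+ replicate 1 was not tested beyond this correction.

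The light chains bind cargo and hold the motor inactive until cargo arrives. Klc1 had normalized counts of 31215, 25668 and 25339 in WT replicates 1 to 3. For hDISC1AA/+ the values were 30263, 25264 and 25266 in replicates 1, 3 and 4, with 26203 in the unnumbered library. The first replicate of each group was high and the other 5 libraries lay close together. The log2 difference was -0.03 (interval -0.28 to 0.22, limma adjusted p = 0.998). Klc1 overlaps Xrcc3 on the opposite strand, and no source used here gives the strand setting of the counting.

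Klc2 followed the same libraries. Its normalized counts were 11987, 9866 and 9775 in WT replicates 1 to 3. The hDISC1AA/+ values were 12149, 9597 and 9614 in replicates 1, 3 and 4, with 9727 in the unnumbered library. The groups overlapped over almost their whole range, and the log2 difference was -0.04 (interval -0.31 to 0.23, limma adjusted p = 0.998). Klc4 had 672 to 902 normalized counts over the 7 libraries and a log2 difference of 0.05. Klc3, a light chain known from sperm tails, had 30.5 to 60.2 and a log2 difference of 0.31, which the limma test did not call (adjusted p = 0.974).

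The light chain shares of Klc1 and Klc2 stayed within a narrow range, and the share of Kif5b did not. Per kilobase, Klc1 made up 69.1% to 70.3% of the light chain sum in the 7 libraries, Klc2 25.6% to 27.3%, Klc4 2.97% to 3.99% and Klc3 0.11% to 0.25%. Among the heavy chains, Kif5a made up 66.5% to 72.2% and Kif5c 23.8% to 28.3%. Kif5b made up 5.10% to 6.02% in 6 libraries and 3.07% in hDISC1AA/+ replicate 1. The genotypes overlapped in every one of these shares. Kif5c as a share of all 48 genes per kilobase was 9.65%, 8.85% and 9.41% in WT replicates 1 to 3. In hDISC1AA/+ it was 7.97%, 8.70% and 8.67% in replicates 1, 3 and 4 and 8.07% in the unnumbered library. The groups did not overlap, as in the Kif5c counts from which this share was computed. The shares of Kif5a, Kif1a, Klc1, Kifc2 and Kifap3 in all 48 genes overlapped between genotypes. The ratio of heavy to light chain sums per kilobase ranged from 1.75 to 2.40 in WT and from 1.44 to 1.88 in hDISC1AA/+, and the groups overlapped.

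**Figure D2:**
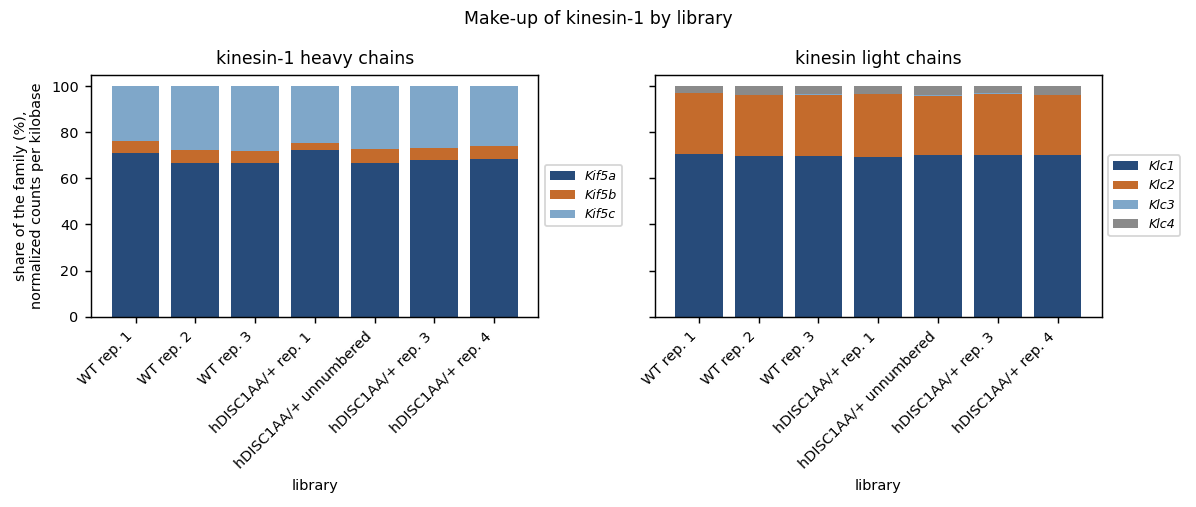
Share of each gene in its family, in percent of the summed normalized counts per kilobase, for the 3 kinesin-1 heavy chain genes (left) and the 4 light chain genes (right) in each of the 7 libraries. Klc1 stays between 69.1% and 70.3%, and the Kif5b band is thinnest in hDISC1AA/+ replicate 1 at 3.07%.

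In kinesin-2, 4 of 5 tested genes lay lower in hDISC1AA/+, the median log2 difference was -0.10 and 0 passed the test. Kifap3, whose product links the KIF3 motors to cargo (chr1:163779583-163917109), had normalized counts of 14234, 13167 and 12729 in WT replicates 1 to 3. The hDISC1AA/+ group had 10897, 12297 and 12388 in replicates 1, 3 and 4, with 11630 in the unnumbered library. All 4 hDISC1AA/+ values lay below the lowest WT value. Its log2 difference in limma was -0.18 (interval -0.38 to 0.02, limma adjusted p = 0.974), and it was -0.14 without WT replicate 1 and -0.10 with that library and hDISC1AA/+ replicate 1 both left out.

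Kif3a, the motor subunit shared by all KIF3 complexes, had normalized counts of 6581, 6228 and 5766 in WT replicates 1 to 3. Its hDISC1AA/+ values were 5916, 5710 and 6008 in replicates 1, 3 and 4, with 5409 in the unnumbered library, and the groups overlapped. Between genotypes the log2 difference was -0.10 (interval -0.30 to 0.10, limma adjusted p = 0.974). Kif3b, its partner in ciliary transport, had a log2 difference of -0.10, and Kif3c, a partner enriched in neurons, had -0.16. Kif17, a motor known for carrying NMDA receptor subunits in dendrites, had 0.05. The share of Kif3c in the KIF3 sum per kilobase was 31.3% to 34.9%, and that of Kif3b 18.8% to 20.7%. The ratio of Kifap3 to Kif3a per kilobase was 1.84 to 1.97 in 6 libraries and 1.65 in hDISC1AA/+ replicate 1.

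Of the 8 kinesin-3 genes, 7 lay lower in hDISC1AA/+, with a median log2 difference of -0.12, and 0 passed the test. This count stands beside 52.2% of all tested genes and 66.7% of those with a mean of at least 1000 normalized counts. Kif1a had normalized counts of 58139, 52504 and 54226 in WT replicates 1 to 3. Its hDISC1AA/+ values were 56915, 51352 and 53629 in replicates 1, 3 and 4, with 45475 in the unnumbered library. The unnumbered library was the lowest and the groups overlapped, with a log2 difference of -0.09 (interval -0.31 to 0.13, limma adjusted p = 0.974).

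Kif1b, which carries mitochondria and synaptic vesicle precursors in different isoforms, had 39703, 36106 and 38893 in WT replicates 1 to 3. Counts in hDISC1AA/+ were 33367, 36059 and 37110 in replicates 1, 3 and 4, with 30685 in the unnumbered library. Only replicate 4 of the 4 hDISC1AA/+ libraries exceeded the lowest WT value. The log2 difference was -0.16 (interval -0.37 to 0.05, limma adjusted p = 0.974). The table gives 1 value per gene, so isoforms were not analysed here.

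Kif13a, a motor of endosomes and recycling vesicles (chr13:46749087-46929867, on the minus strand), was at 1006, 967 and 1102 normalized counts in WT replicates 1 to 3. For hDISC1AA/+ the values were 941, 934 and 941 in replicates 1, 3 and 4, with 833 in the unnumbered library. The groups did not overlap. Its log2 difference in limma was -0.17 (interval -0.40 to 0.06, limma adjusted p = 0.974), and over 16 other settings of the processing it stayed between -0.25 and -0.11. With WT replicate 1 and hDISC1AA/+ replicate 1 both left out it was -0.20. Because the groups did not overlap, leaving out libraries could not reverse its direction. Kif1c, a motor of wide distribution, had a log2 difference of -0.16, Kif13b -0.08 and Kif16b, an endosomal motor, 0.07.

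Kinesin-4 held the gene that lay higher in every hDISC1AA/+ library. Kif27, a relative of the Hedgehog pathway kinesin Kif7 and known for a role in motile cilia (chr13:58287502-58359122, on the minus strand), was at 89.2, 100.4 and 89.4 normalized counts in WT replicates 1 to 3. The hDISC1AA/+ group had 113, 121 and 130 in replicates 1, 3 and 4, with 119 in the unnumbered library. The means were 93.0 ± 6.42 (SD, n = 3) and 121 ± 6.79 (SD, n = 4), and the groups did not overlap. Between genotypes the log2 difference was 0.38 (interval -0.00 to 0.75), with a limma adjusted p of 0.974. It stayed between 0.34 and 0.43 over the same settings, with both libraries that stood apart left out among them. Leaving out libraries could not reverse the direction, because the groups did not overlap. Ependymal and ciliated cell markers summed to 238 to 345 in WT and 256 to 356 in hDISC1AA/+, with 1 of 5 tested markers lower, and their part in the Kif27 values was not tested.

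Kif21a, which halts microtubule growth at the cell edge and in axons, had normalized counts of 9439, 11135 and 9893 in WT replicates 1 to 3. Its hDISC1AA/+ values were 9122, 9835 and 9655 in replicates 1, 3 and 4, with 8691 in the unnumbered library. The groups overlapped, with a log2 difference of -0.12 (interval -0.33 to 0.09, limma adjusted p = 0.974). Kif21b, its neuronal relative, had 4903, 6077 and 6035 in WT replicates 1 to 3. Replicates 1, 3 and 4 of hDISC1AA/+ had 6144, 5822 and 4895, and the unnumbered library 5411. The groups overlapped, and the difference was -0.02 on the log2 scale (interval -0.29 to 0.24, limma adjusted p = 0.998). Kif7 had a log2 difference of 0.21 and the mitotic motor Kif4 one of -0.30, both from at most 135 normalized counts in any library and neither called.

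Kif2a of kinesin-13, which trims microtubule ends in axon branches, had normalized counts of 4144, 4886 and 4177 in WT replicates 1 to 3. Counts in hDISC1AA/+ were 2602, 3859 and 4596 in replicates 1, 3 and 4, with 4491 in the unnumbered library. Replicate 1 alone was far below the rest. The log2 difference was -0.21 (interval -0.64 to 0.22, limma adjusted p = 0.974) and moved to -0.03 without hDISC1AA/+ replicate 1. At 41.3%, Kif2a has the lowest exon GC content of the abundant kinesin genes. Kif24, a centriole kinesin, had 30.8, 55.7 and 43.6 in WT replicates 1 to 3. Replicates 1, 3 and 4 of hDISC1AA/+ had 40.2, 40.1 and 72.0, and the unnumbered library 50.9. The groups overlapped, and the difference was 0.22 on the log2 scale (interval -0.47 to 0.91, limma adjusted p = 0.977).

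The kinesin-14 genes encode motors that run towards minus ends. Kifc2, known from dendrites and axons, had normalized counts of 22062, 15949 and 18872 in WT replicates 1 to 3. Its hDISC1AA/+ values were 21367, 17899 and 17538 in replicates 1, 3 and 4, with 17271 in the unnumbered library. The groups overlapped, with a log2 difference of -0.03 (interval -0.32 to 0.26, limma adjusted p = 0.998). Kifc3 had 2156, 1998 and 2115 in WT replicates 1 to 3. The hDISC1AA/+ counts were 2385, 1927 and 1862 in replicates 1, 3 and 4, and 2185 in the unnumbered library. The hDISC1AA/+ values lay on both sides of the WT values, and the difference was -0.0065 on the log2 scale (interval -0.26 to 0.24, limma adjusted p = 0.998). Kifc5b had the highest log2 difference of the set, 0.42 (interval -0.14 to 0.97, limma adjusted p = 0.974). The longest transcripts of Kifc5b and Kifc1 share 42.1% and 47.6% of their 50-base stretches with transcripts of other genes. Each shares most with the other, so reads could be split between these 2 genes by the counting and their values are uncertain.

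The spindle and division kinesins were measured at low counts, 7 of 9 passed the filter, and 4 of those 7 lay lower in hDISC1AA/+ with 0 called. Kif22, a chromosome arm motor, had the highest level of them, with 107, 229 and 205 normalized counts in WT replicates 1 to 3. Its hDISC1AA/+ counts were 234, 242 and 151 in replicates 1, 3 and 4, and 258 in the unnumbered library. The groups overlapped. The log2 difference of Kif22 was 0.34 (interval -0.33 to 1.007, limma adjusted p = 0.974), and with both libraries that stood apart left out it was -0.04. Kif20a, a kinesin-6 of cell division, had 72.5, 48.0 and 43.6 in WT replicates 1 to 3. Its hDISC1AA/+ counts were 68.8, 46.6 and 43.2 in replicates 1, 3 and 4, and 36.3 in the unnumbered library. The first replicate of each group was high, the groups overlapped, and the log2 difference was -0.17 (interval -0.83 to 0.50, limma adjusted p = 0.984). Proliferating cell markers summed to 315 to 430 in WT and 311 to 468 in hDISC1AA/+, and their part in these values was not tested.

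Of the 5 kinesins of the cilium and orphan group, 2 lay lower and 0 were called. Kif26b had 700.2, 1076 and 873 normalized counts in WT replicates 1 to 3. Replicates 1, 3 and 4 of hDISC1AA/+ had 819.7, 694 and 914, and the unnumbered library 892. The groups overlapped, with a log2 difference of -0.08 (interval -0.44 to 0.29, limma adjusted p = 0.991). Kif26a, a kinesin without ATPase activity, had 282, 345 and 409 in WT replicates 1 to 3. Replicates 1, 3 and 4 of hDISC1AA/+ had 345, 344 and 407, and the unnumbered library 459.9. The groups overlapped, and the difference was 0.18 on the log2 scale (interval -0.21 to 0.56, limma adjusted p = 0.974).

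Kif1bp, whose product binds several kinesins and blocks their attachment to microtubules, had normalized counts of 6310, 6485 and 6413 in WT replicates 1 to 3. For hDISC1AA/+ the values were 7243, 6687 and 6869 in replicates 1, 3 and 4, with 6257 in the unnumbered library. The unnumbered library lay below all WT values and the other 3 lay above them, so the groups overlapped. Its log2 difference in limma was 0.08 (interval -0.12 to 0.27, limma adjusted p = 0.974).

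**Figure D3:**
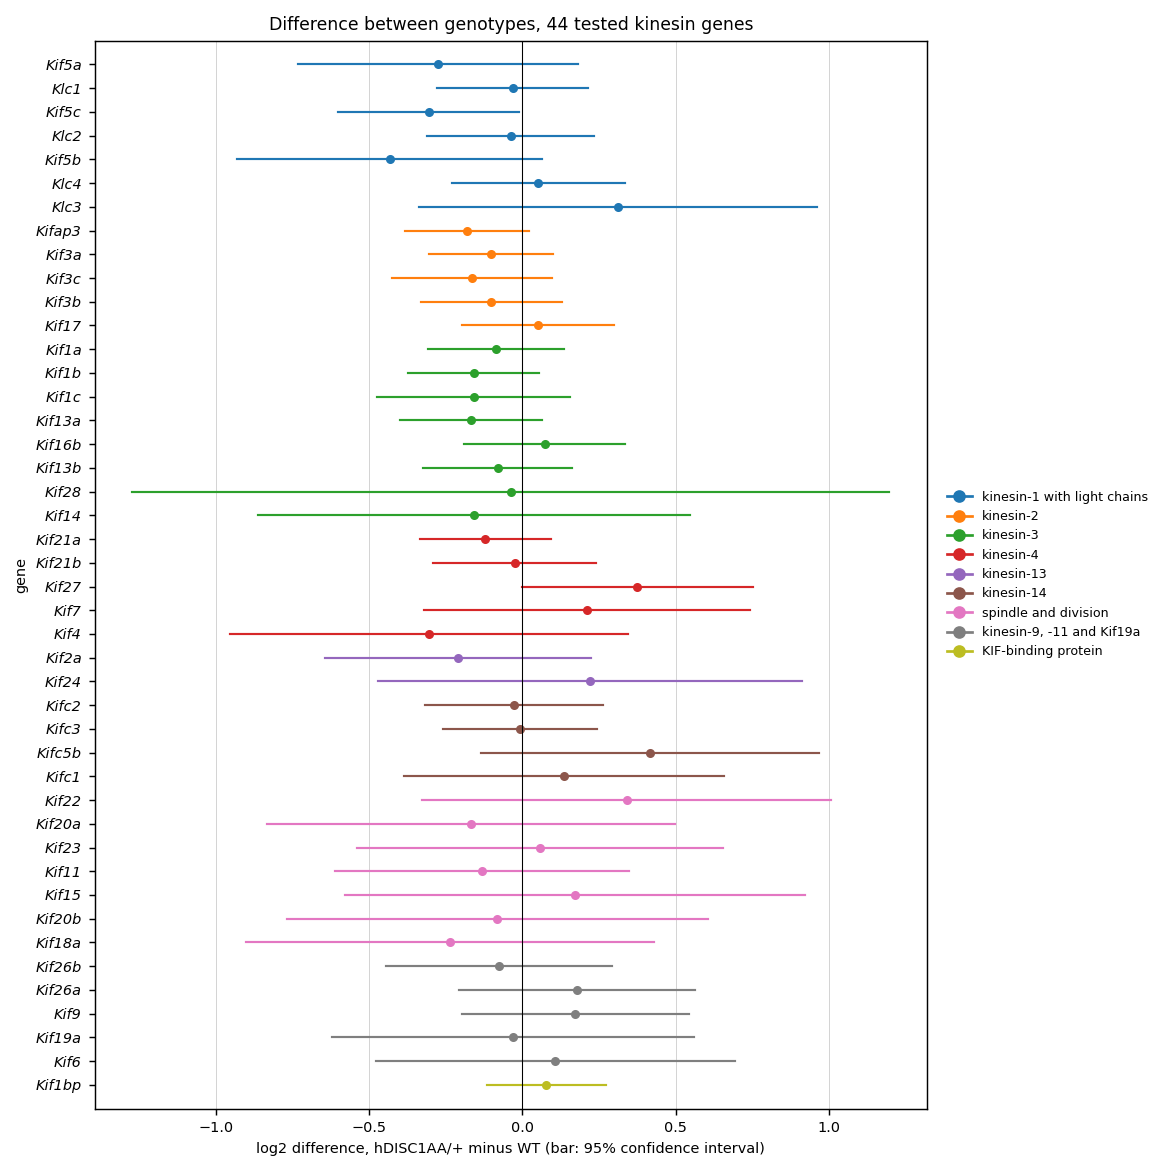
log2 difference (hDISC1AA/+ minus WT, on normalized counts plus 1) with its 95% confidence interval for the 44 tested kinesin genes, coloured by family. Only the interval of Kif5c ends below 0, at -0.01, and no gene passed the limma test after adjustment.

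Over all 44 tested kinesin genes, 28 lay lower in hDISC1AA/+ (63.6%, against 52.2% of all tested genes), with a median log2 difference of -0.04 against -0.01. The direction differed by level, as it did over all tested genes, in a split made after the values were seen. Of the 19 genes with a mean of at least 1000 normalized counts, 17 lay lower, with a median of -0.10. Among all tested genes at that level 66.7% lay lower, with a median of -0.05. Of the 25 less abundant kinesin genes, 11 lay lower (44%), with a median of 0.06. Among all tested genes with a mean under 1000, 43.0% lay lower, with a median of 0.04. Without WT replicate 1, 13 of the 19 lay lower, against 59.9% of all genes at that level. With both libraries that stood apart left out 15 did, against 63.0%. The limma confidence interval lay within a 1.5-fold change either way for 22 of the 44 genes, and within a 2-fold change for 42.

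The 19 abundant genes were also compared library by library. WT replicate 1 was the highest library for 11 of them and lay above the mean of the libraries for 16, by a median of 0.15 on the log2 scale. The unnumbered hDISC1AA/+ library was the lowest for 9 and lay below the mean for 17, with a median of -0.12. The deviation of hDISC1AA/+ replicate 1 followed GC content across the 19 genes, with Pearson's r = 0.86. In that library 7 of the 8 genes under 50% GC lay below their mean, and all 11 with 50% GC or more lay above it. Genes are not independent replicates, and these coefficients describe single libraries. Across the same genes r was -0.76 in hDISC1AA/+ replicate 4 and -0.69 in WT replicate 2, and between -0.32 and -0.03 in the other 4 libraries. Each gene's mean includes hDISC1AA/+ replicate 1, so a trend there pushes the other libraries the opposite way. These r values are therefore not independent of each other.

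**Figure D4:**
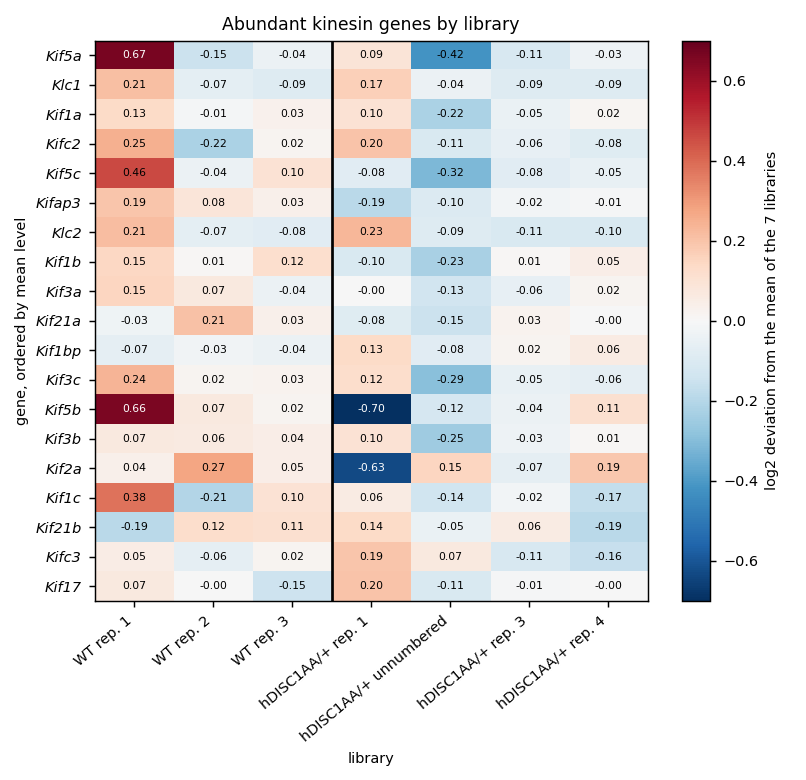
log2 deviation of each of the 19 abundant kinesin genes (rows, ordered by level) from its mean over the 7 libraries (columns, WT left of the black line). Kif5a, Kif5b and Kif5c are highest in WT replicate 1, and Kif5b and Kif2a are lowest in hDISC1AA/+ replicate 1.

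**Figure D5:**
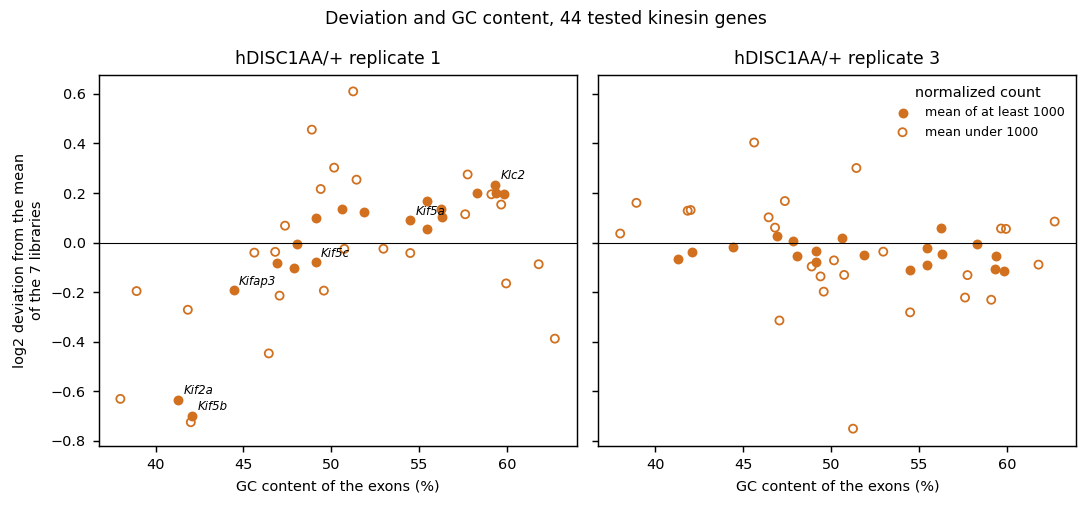
log2 deviation from the mean of the 7 libraries against exon GC content (%) for the 44 tested kinesin genes, in hDISC1AA/+ replicate 1 (left) and replicate 3 (right). Filled circles have a mean of at least 1000 normalized counts, and these follow GC content in replicate 1 (r = 0.86) and show r = -0.24 in replicate 3.

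Genes that work with the motors were examined as a list of cargo adaptors and regulators and a list of dynein and dynactin subunits and adaptors, dynein being the minus-end motor that moves cargo back to the cell body. All 39 adaptors and regulators were tested, 29 lay lower in hDISC1AA/+ and 0 were called, with a median log2 difference of -0.07 and 2 at an unadjusted limma p under 0.05. Of all tested genes 52.2% lay lower (66.7% of those with a mean of at least 1000 normalized counts) and 2.44% were under that p. Trak2, an adaptor between motors and mitochondria, had 10609, 8346 and 8365 normalized counts in WT replicates 1 to 3. The hDISC1AA/+ group had 7436, 7553 and 7533 in replicates 1, 3 and 4, with 6858 in the unnumbered library. The groups did not overlap, and the log2 difference was -0.30 (interval -0.55 to -0.06, limma adjusted p = 0.974). Pafah1b1, the lissencephaly gene and a dynein regulator that acts with the DISC1 partner NDEL1, had 28344 to 30468 in WT and 19608 to 27053 in hDISC1AA/+, which did not overlap (log2 difference -0.28). These were the 2 of the 39 whose groups did not overlap, against 5.04% of all tested genes. Gsk3b, the kinase named in the series title, had 9525 to 10603 in WT and 7304 to 9879 in hDISC1AA/+, a log2 difference of -0.23 (limma adjusted p = 0.974). Of the 25 dynein and dynactin genes, 17 lay lower (68%) and 0 were called, with a median of -0.03 and 0 at an unadjusted p under 0.05 (limma). That share stands against the same 52.2% of all tested genes and 66.7% of those with a mean of at least 1000. The groups of 1 of the 25, Dync1li2, did not overlap, against 5.04% of all tested genes. The 3 with the smallest p were Hook2 (log2 difference 0.29), Dync1li2 (-0.13) and Hook3 (-0.31).

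Of the 48 kinesin genes, 24 overlap a gene on the opposite strand, which is a coding gene for 9 of them. Kifc2 overlaps Cyhr1 in this way and Kif2a overlaps Dimt1, and reads from such pairs cannot be told apart without strand. Kif5a, Kif5c, Kifap3, Kif1a and Kif1b overlap no gene on the opposite strand. Kif5c does overlap Gm13525 on its own strand, which strand would not resolve. Kif13a overlaps Gm22960 and Gm48250 on the opposite strand and Gm24620 on its own. Kif27 overlaps Gm24284 and Gm26555 on the opposite strand and Mir6369 on its own. All these overlaps are of whole gene spans, introns included. Apart from Kifc1 and Kifc5b, no kinesin gene shared over 10% of the 50-base stretches of its longest transcript with other genes.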

How the data were processed

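Gene levels were measured by RNA sequencing in 3 WT and 4 hDISC1AA/+ libraries. Build mm10 and 4 tools (HTSeq 0.6.1, DESeq2 1.26.0, HISAT2 2.1.0 and Trimmomatic 0.39) are listed in the submitters' processing notes without their roles. For the counting, the annotation and the strand setting were not given in the sources used here. Per the file's values, the authors deposited a signal, which is reads scaled by 1 factor per library: in all 7 columns every value was a whole multiple of 1 step within 0.01 reads, which gave back the reads. The signal is called normalized count here. Of 43626 gene identifiers, 42545 were matched to GENCODE mouse release 21, which gave symbols, exon lengths and GC content on GRCm38. Values of 3 genes whose identifier stood on another line (up to 0.0169% of a library) were left out. No pair of libraries agreed within counting noise (chi-square over its degrees of freedom 10.7 to 163).

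Differences were tested on log2(normalized count + 1) with limma 3.58.1 (trend, robust, two-sided) over genes with at least 10 in at least 3 libraries, with Benjamini-Hochberg adjustment over all 17670 genes and a threshold of 0.05. Fold changes on this scale understate those of low genes. The fit was tested on simulated data. Alternatives were edgeR 4.0.16 and DESeq2 1.42.0 on recovered reads, other pseudocounts, no filter, TMM scaling, array weights, a GC and length correction, each library left out, and both libraries that stood apart left out. Because the deposited values are not raw counts, no count model was the main test. The members and lists were chosen with earlier results of these data known, and lists were described by counts and medians without a test. Values are given in full for Kif5a, Kif5b, Kif5c, Klc1 and Klc2, for genes at an unadjusted p under 0.05, the 2 most abundant tested genes of each other family, genes whose groups do not overlap, and Kif1bp. Other genes were named from the 2 pathway lists, the 3 with the smallest p of each.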

Additional observations from a re-analysis of the deposited data

Results flagged for a closer look

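In the hDISC1AA/+ group of 4, 1 library lay far from the other 3 (Dixon's criterion, 95% level) for 5 of the 44 tested kinesin genes. Chance alone gives such a library in about 1 in 20 groups, and these genes share their libraries. The share over all tested genes was not counted, so 5 of 44 cannot be read as particular to kinesin genes. In replicate 1, Kifc2 was high at 21367 normalized counts and Klc2 was high at 12149, while Kif14, a kinesin-3 of cell division, was low at 13.8. In the unnumbered library, Kif5c was low at 25876 and Kif13a was low at 833 normalized counts.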

How the results depend on the processing

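Under all 16 alternatives the number of kinesin genes called was 0, and the smallest adjusted p among kinesin genes was 0.398, with limma array weights. Genes lower in hDISC1AA/+ numbered 22 (without WT replicate 1) to 29. The median log2 difference ranged from -0.080 (without WT replicate 2) to -0.0078 (without hDISC1AA/+ replicate 4) when 1 library was left out. Over the 22 genes given in full and the 16 alternatives, 332 of 352 log2 differences kept their direction and 20 reversed, in 9 genes, none of them called. The cause was not tested. With array weights Klc1 was at 0.011 and Kif26a at -0.0074. With both libraries that stood apart left out, Klc1 was at 0.0040, Kifc2 at 0.018 and Kif22 at -0.036. With edgeR, Kifc3 was at 0.0058. With 1 library left out, the log2 difference ranged from -0.093 to 0.065 for Klc1, -0.12 to 0.057 for Klc2, -0.13 to 0.035 for Kif21b, -0.15 to 0.089 for Kifc2, -0.072 to 0.047 for Kifc3, -0.34 to 0.049 for Kif20a and -0.23 to 0.078 for Kif26b. Kif5c kept its direction throughout, from -0.41 to -0.16. Because its groups did not overlap, leaving out libraries could not reverse that direction. Kif5c had no unadjusted p under 0.05 without WT replicate 1, WT replicate 3, hDISC1AA/+ replicate 3, hDISC1AA/+ replicate 4 or the unnumbered library. Nor had it one with the GC and length correction or with both libraries that stood apart left out. Other kinesin genes had such a p in some settings. These were Kif27 with TMM, array weights and the GC and length correction, and Kif13a and Klc3 with array weights. Kif1c had one without WT replicate 2, and Kif5b without hDISC1AA/+ replicate 4. With array weights 1823 of all 17670 tested genes were under that p, and 4 of 44 kinesin genes. With TMM 425 of 17670 were, and with the GC and length correction 511 of 17543. The count was 875 of 17510 without WT replicate 2 and 467 of 17463 without hDISC1AA/+ replicate 4. No paired analysis was possible because the labels number no replicates: the numbers used here only name libraries in accession order and pair none. Low counts limit precision: the confidence interval lay within a 1.5-fold change for 15 of the 19 kinesin genes with a mean of at least 1000 normalized counts and for 7 of the 25 below it.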
